A study of Mus musculus with 12 samples.

Results

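The aryl hydrocarbon receptor pathway was followed through 9 genes: Ahr, Arnt, Ahrr, Cyp1a1, Cyp1b1, Tiparp, Nqo1, Ugt1a6a and Ugt1a7c. They were taken by gene symbol from a table of 14089 genes, and all 9 were present and passed the filter on low counts, which removed 0 genes. The set was chosen because Cyp1a1 had been lower with ML351 in these same libraries. Differences between groups with and without ML351 are therefore given as a description with no test, and Cyp1a1 is not tested in any comparison. The interaction of cytokines and ML351, which is built from the same differences, was tested for the other 8 genes.

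RNA was sequenced from isolated pancreatic islets of C57BL/6J mice, the tissue fragments that hold the insulin-secreting β cells, after 24 hours of culture. There were 4 groups of 3 libraries. The combination group received ML351 at 10 µM together with a mixture of 3 inflammatory cytokines: IL-1β (5 ng/ml), TNF-α (10 ng/ml) and IFN-γ (100 ng/ml). The cytokines group received the mixture alone, the ML351 group ML351 alone at 10 µM, and the last group vehicle. ML351 is a small molecule that blocks a lipoxygenase, and by its title the study asked what that does to oxidative stress in β cells. Nothing in the labels tells whether the 3 libraries of a group are separate animals or separate cultures. The p-values therefore cover the spread between these libraries, which may be technical.

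The aryl hydrocarbon receptor, encoded by Ahr, is a ligand-activated transcription factor held in the cytoplasm by a chaperone complex. Once a ligand binds (a dioxin, a plant indole or a tryptophan metabolite such as kynurenine), it enters the nucleus, pairs with ARNT and binds DNA at a short core, GCGTG. Its best known targets encode the xenobiotic-metabolising enzymes CYP1A1 and CYP1B1, together with 2 proteins that feed back on the receptor, the repressor AHRR and the ADP-ribosyltransferase TIPARP. NQO1, a quinone reductase, and the glucuronosyltransferases UGT1A6 and UGT1A7 are targets as well, and NQO1 also answers to the oxidative stress factor NRF2.

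The 250 bases before the RefSeq transcription start are shown for the 4 genes best known as direct targets, with the core in capitals (GCGTG on the strand of the gene, CACGC where it lies on the other strand). The windows are from build GRCm38.p6, at chr9:57697363-57697612 (plus strand) for Cyp1a1, chr17:79715062-79715311 (minus) for Cyp1b1, chr13:74292332-74292581 (minus) for Ahrr and chr3:65528197-65528446 (plus) for Tiparp.
Cyp1a1: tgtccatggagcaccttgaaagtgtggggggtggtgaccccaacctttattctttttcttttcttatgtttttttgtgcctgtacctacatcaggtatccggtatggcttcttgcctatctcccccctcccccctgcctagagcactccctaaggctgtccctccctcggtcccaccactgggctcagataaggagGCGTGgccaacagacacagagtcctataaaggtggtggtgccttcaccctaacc
Cyp1b1: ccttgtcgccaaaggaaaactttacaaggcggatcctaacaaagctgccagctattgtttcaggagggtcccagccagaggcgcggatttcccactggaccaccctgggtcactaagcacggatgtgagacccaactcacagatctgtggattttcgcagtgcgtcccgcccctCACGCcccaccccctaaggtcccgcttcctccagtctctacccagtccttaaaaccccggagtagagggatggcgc
Ahrr: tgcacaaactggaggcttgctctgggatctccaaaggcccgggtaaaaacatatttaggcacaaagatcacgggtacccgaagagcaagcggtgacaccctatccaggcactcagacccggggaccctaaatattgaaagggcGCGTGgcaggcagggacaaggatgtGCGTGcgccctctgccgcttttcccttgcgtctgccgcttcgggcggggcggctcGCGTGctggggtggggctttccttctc
Tiparp: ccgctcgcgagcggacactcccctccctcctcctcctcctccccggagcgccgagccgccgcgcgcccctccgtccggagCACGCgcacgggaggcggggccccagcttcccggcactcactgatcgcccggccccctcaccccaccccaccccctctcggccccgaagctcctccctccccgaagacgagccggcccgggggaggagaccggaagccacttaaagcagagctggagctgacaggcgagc
The Cyp1a1 window held 1 core, 54 bases before the start, and the Ahrr window held 3, at 107, 82 and 27 bases. Cyp1b1 held 1 core at 76 bases and Tiparp 1 at 170 bases, both on the strand opposite to the gene. Of the 8 members with a RefSeq window, 5 held a core on either strand (the fifth was Arnt, 29 bases before its start) and 3 held none (Nqo1, Ugt1a6a and Ugt1a7c). Among all 32851 windows of this length 28.2% held a core and 8.63% held 2 or more. The longer form TNGCGTG, which contains the core, was met by 1 of these cores, the Ahrr core at 27 bases, and was present in 4.1% of all windows. The letters GCGTG are also part of the core bound by hypoxia-inducible factor paired with ARNT, which reads ACGTG or GCGTG. The best studied Cyp1a1 elements lie farther upstream, outside this window. A match to these letters describes the window and does not show binding.

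**Figure D1:**
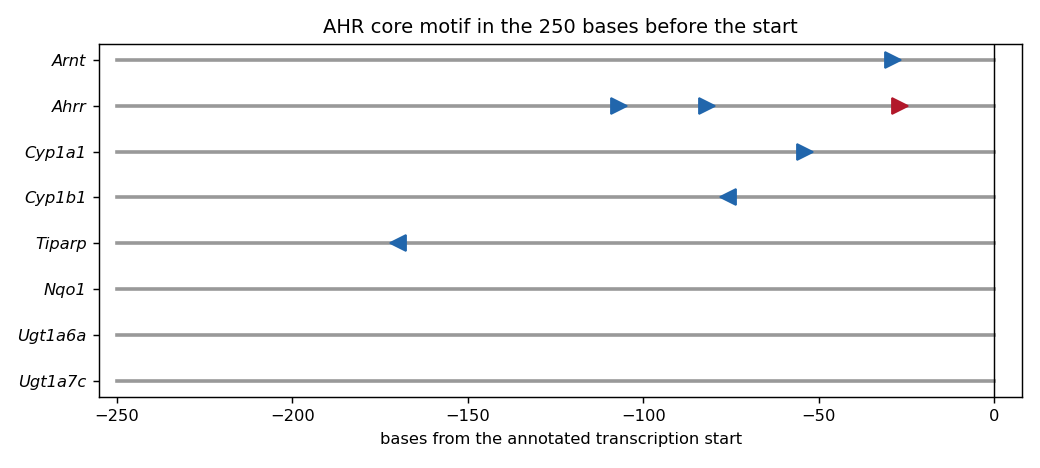
Position of the core GCGTG in the 250 bases before the annotated transcription start of 8 genes (x axis, bases from the start; right-pointing marks, strand of the gene; left-pointing, opposite strand; red, the longer form TNGCGTG). Ahrr carries 3 cores and Nqo1, Ugt1a6a and Ugt1a7c none in this window.

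Library totals ran from 20208286 to 27193026 counts, and levels are given as CPM, counts scaled to library size, after TMM scaling. The islet hormone genes were present in every library, with Ins2 at 191600 to 262000 CPM and Ins1 at 40360 to 82060 CPM. Gcg, Sst and Ppy, which mark α, δ and PP cells, were lower in the 6 libraries with cytokines than in the 6 without (Gcg at 631.1 to 1547 CPM against 26690 to 38880 CPM). In bulk RNA, fewer cells of a type and less RNA per cell cannot be told apart.

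Per kilobase of exon, Nqo1 was the highest of the 9 genes with vehicle, at 17.2 ± 0.431 CPM per kb (SD, n = 3). Ugt1a6a followed at 12.4 ± 0.662, Cyp1a1 at 8.59 ± 1.47, Arnt at 5.74 ± 0.374 and Tiparp at 3.88 ± 0.287 CPM per kb. Ahr itself stood at 0.918 ± 0.116 CPM per kb, below its partner Arnt. Cyp1b1 (0.521 ± 0.216), Ugt1a7c (0.143 ± 0.0409) and Ahrr (0.0679 ± 0.0137) were lowest. No 2 neighbours in this order overlapped between the 3 vehicle libraries. The Ugt1a genes share exons (2170 of the exon bases of Ugt1a6a and Ugt1a7c are common to both), so their division of reads and their levels per kb are uncertain.

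Cyp1a1 (chromosome 9, 57687928 to 57703824, plus strand, the whole gene in GENCODE M21 on GRCm38, as for the positions that follow), which encodes the cytochrome P450 most often used to read receptor activity, was lowest in the combination. It stood at 0.293, 1.59 and 0.363 CPM in combination replicates 1, 2 and 4, from 6, 36 and 7 counts. With cytokines alone it stood at 10.1, 13.1 and 18.7 CPM, with ML351 alone at 6.97, 11.8 and 7.88 CPM, and with vehicle at 21.1, 22.1 and 28.6 CPM. Every combination library lay below every library of the other groups, and every vehicle library lay above them. The cytokines and ML351 groups overlapped each other.

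The mean of Cyp1a1 was 3.13% of the vehicle mean in the combination, 58.3% with cytokines and 37.1% with ML351. The log2 fold change was -4.15 (SE 0.509) for the combination against cytokines and -1.43 (SE 0.373) for ML351 against vehicle. Against ML351, the combination was at -3.51 (SE 0.516), and cytokines against vehicle at -0.78 (SE 0.366). The difference between the ML351 effects with and without cytokines was -2.73 (SE 0.646). These values chose the set and carry no test. Combination replicate 2 was the highest of its group, and without it the combination stood at -5.38 against cytokines and -4.73 against ML351, and the difference between the ML351 effects at -3.95.

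Ahrr (chromosome 13, 74211118 to 74292331, minus strand), which encodes the repressor that competes with the receptor for ARNT, was near the lower limit of counting in all groups. It had 0, 4 and 3 counts in the combination and 28, 11 and 12 with cytokines. With ML351 it had 0, 2 and 5 counts, against 18, 14 and 11 with vehicle. Both groups with ML351 lay below both groups without it. The summed 7 counts in the combination allow 2.81 to 14.4 by a 95% Poisson interval and the 51 counts with cytokines 38 to 67.1, for counting error only. The log2 fold change was -2.72 (SE 0.747) for the combination against cytokines and -2.74 (SE 0.751) for ML351 against vehicle, which was -3.86 without ML351 replicate 3.

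Cyp1b1 (chromosome 17, 79701537 to 79715061, minus strand), the other P450 of the set, was high with cytokines alone and low with ML351. It stood at 2.25, 8.17 and 3.84 CPM in the combination, 25.7, 17.9 and 26.9 CPM with cytokines, 0.552, 0.692 and 1.73 CPM with ML351 and 3.23, 4.20 and 1.70 CPM with vehicle. The cytokines group lay above all other libraries, and ML351 and vehicle overlapped. Against cytokines the combination was at -2.29 (SE 0.501), and ML351 against vehicle at -1.61 (SE 0.629). These were -2.95 without combination replicate 2 and -2.27 without ML351 replicate 3.

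Tiparp (chromosome 3, 65528410 to 65555518, plus strand) differed little with ML351. It stood at 31.1, 34.0 and 36.5 CPM in the combination and at 38.3, 42.1 and 41.5 CPM with cytokines, groups that did not overlap (log2 fold change -0.26, SE 0.0822). With ML351 it was at 14.9, 16.3 and 16.2 CPM, against 16.5, 18.3 and 15.9 CPM with vehicle (-0.10, SE 0.087), and these overlapped. In the annotation 5.12% of its exon bases overlap 4931440P22Rik on the other strand, and the libraries do not record strand.

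**Figure D2:**
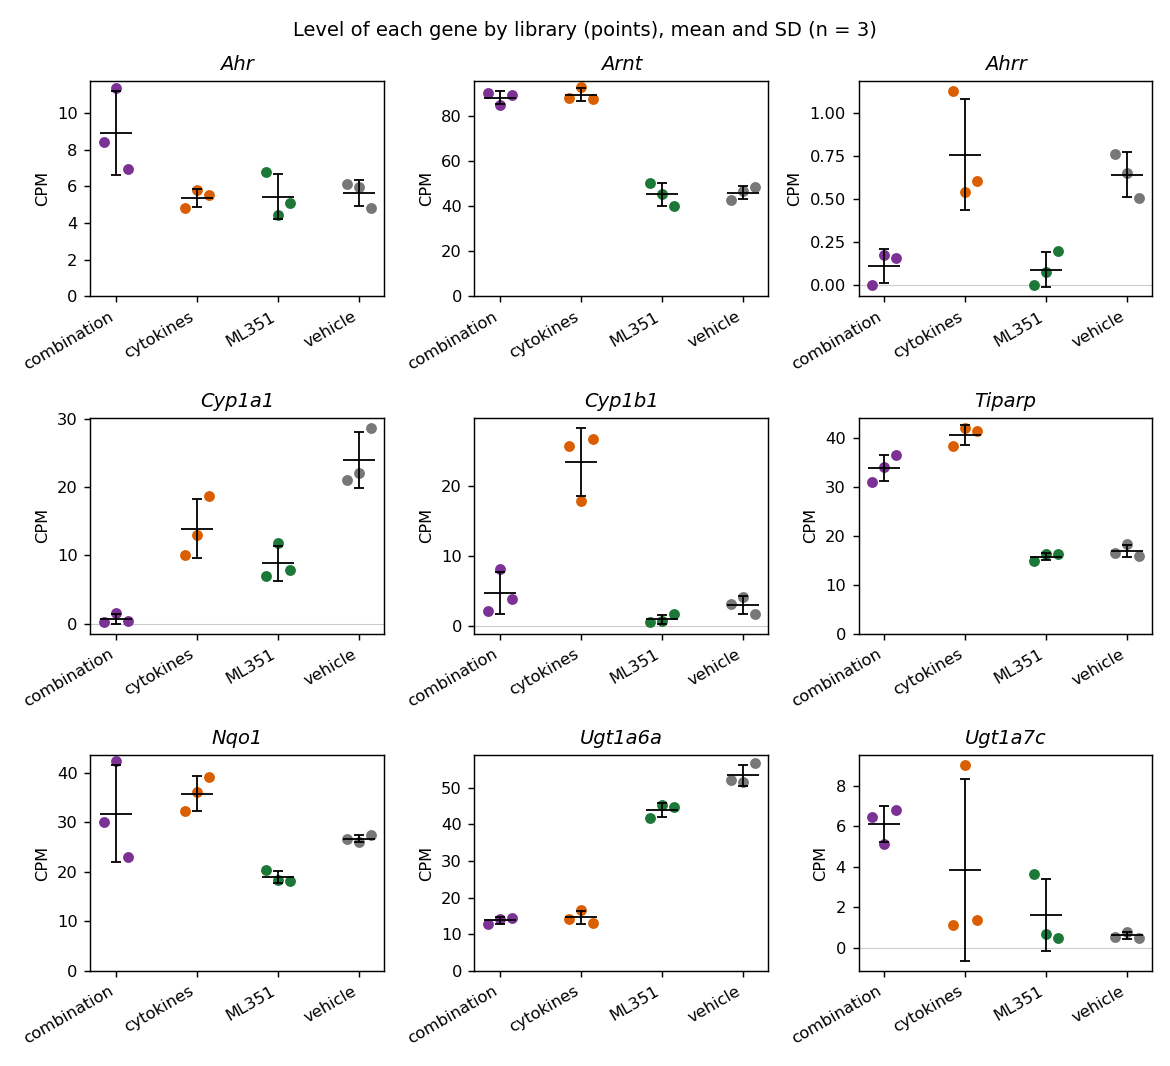
Level of the 9 genes in CPM (y axis, linear) in each library of the 4 groups (points), with the mean and SD of 3 libraries. Cyp1a1 and Ahrr are lower in the combination than with cytokines and lower with ML351 than with vehicle, Cyp1b1 is high with cytokines alone, and Arnt and Tiparp are high in both groups with cytokines.

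The receptor subunits differed between these conditions in other ways. Ahr (chromosome 12, 35497974 to 35535038, minus strand) stood at 8.41, 11.4 and 6.95 CPM in the combination. It was at 4.84, 5.79 and 5.54 CPM with cytokines, 6.80, 4.45 and 5.08 CPM with ML351 and 6.15, 5.98 and 4.83 CPM with vehicle. The combination lay above all other libraries, though its lowest library exceeded the highest ML351 library by a small margin. Against cytokines it was at 0.73 (SE 0.194), while ML351 against vehicle was at -0.06 (SE 0.195). Arnt (chromosome 3, 95434388 to 95497240, plus strand) was at -0.02 in both of these comparisons (SE 0.0749 and 0.0772).

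Nqo1 and Ugt1a6a had smaller differences with ML351 than the P450 genes and Ahrr. Nqo1 (chromosome 8, 107388225 to 107403206, minus strand) stood at 30.1, 42.4 and 23.0 CPM in the combination and 32.3, 36.1 and 39.2 CPM with cytokines, which overlapped (-0.17, SE 0.168). The overlap came from combination replicate 2, and without it the difference was -0.43. It was at 20.4, 18.4 and 18.1 CPM with ML351, against 26.6, 26.1 and 27.4 CPM with vehicle, without overlap (-0.50, SE 0.172). Ugt1a6a (chromosome 1, 88134809 to 88218997, plus strand) was at 41.8, 45.2 and 44.7 CPM with ML351, against 52.1, 51.5 and 56.7 CPM with vehicle (-0.28, SE 0.0823), also without overlap. In the combination against cytokines Ugt1a6a was at -0.08 (SE 0.0929), and these groups overlapped.

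In all, 4 of the 9 genes had ML351 libraries all below vehicle (Ahrr, Cyp1a1, Nqo1 and Ugt1a6a), where 7.32% of all genes did, and 0 had them all above, where 8.57% did. All told, 15.9% of genes did not overlap there. In the combination against cytokines 4 of 9 lay below without overlap (Ahrr, Cyp1a1, Cyp1b1 and Tiparp), where 10.3% of all genes did, and 1, Ahr, lay above, where 10.1% did (20.4% in either direction). Ahrr and Cyp1a1 were the 2 genes below in both comparisons, which 1.33% of all genes were. The set was chosen on this contrast, so nothing is read from these counts.

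Markers of other cell types also differed between libraries with and without ML351. The summed level of 13 macrophage markers was 309.8 to 315.9 CPM in the combination and 344.3 to 363.1 CPM with cytokines, and 167.8 to 191.6 CPM with ML351 and 223.7 to 229.4 CPM with vehicle. The sum of 11 endothelial markers was 18.4 to 22.2 CPM in the combination and 28.2 to 38.3 CPM with cytokines, but 131.3 to 140.2 CPM with ML351 and 116.5 to 126.4 CPM with vehicle. The 12 stellate and fibroblast markers summed to 49.8, 187.4 and 52.4 CPM in combination replicates 1, 2 and 4 and to 85.5 to 125.7 CPM with cytokines, and to 165.6 to 366.3 CPM with ML351 and 186.1 to 460.4 CPM with vehicle. Replicate 2 was the highest combination library for these markers, for Cyp1a1, Cyp1b1, Nqo1 and Ahr, and for the macrophage, acinar, δ and PP sums. It was the lowest for the endothelial sum (18.4 CPM) and for the β cell sum (257000 CPM). The 15 measured acinar markers, of the enzyme-secreting exocrine cells, summed to 1081 to 1581 CPM in the combination and 39.2 to 905.7 CPM with cytokines, and to 102.5 to 276.1 CPM with ML351 and 169.3 to 654.2 CPM with vehicle. Summed δ cell markers (3 genes) were 140.3 to 203.7 CPM in the combination and 91.7 to 135.9 CPM with cytokines, and 1463 to 1513 CPM with ML351 and 1375 to 1438 CPM with vehicle, without overlap in either comparison. Summed PP cell markers (2 genes) were 299.7 to 1218 CPM in the combination and 795.7 to 1410 CPM with cytokines, which overlapped, and 4152 to 9679 CPM with ML351 and 10400 to 11790 CPM with vehicle, which did not. The macrophage and endothelial sums did not overlap in either comparison, the acinar sum did not overlap between the combination and cytokines, and the stellate sum overlapped in both. Of these 6 lists 0 measured genes were at 0 in any library. The sums of β, α and ductal markers, the other lists looked at, overlapped in both comparisons. The part of all these markers in the levels above was not tested.

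The cytokine response was measured in 2 sets of 6 libraries that do not overlap, cytokines against vehicle and the combination against ML351. Each shares libraries with the ML351 comparisons above. With cytokines alone 5 of the 8 tested genes rose (Arnt, Cyp1b1, Tiparp, Nqo1 and Ugt1a7c), 1 fell (Ugt1a6a) and 2, Ahr and Ahrr, were not called. Of all genes 72.5% were called, 35.3% higher and 37.2% lower, so 6 of 8 is near the background. In the combination against ML351 5 rose (Ahr, Arnt, Cyp1b1, Tiparp and Nqo1), 1 fell (Ugt1a6a) and 2 were not called (Ahrr and Ugt1a7c), where 71.5% of all genes were called, 35.2% higher and 36.4% lower. Counted over all 9 genes without a test, the cytokines and vehicle groups did not overlap for 7, with 5 above and 2 below, where 76.6% of all genes did not (37.2% above, 39.4% below). The combination and ML351 groups did not overlap for 8, with 6 above and 2 below, where 74% of all genes did not (36.4% above, 37.6% below).

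Cyp1b1 rose in both sets. Mean levels were 23.5 ± 4.87 CPM with cytokines and 3.04 ± 1.26 CPM with vehicle (SD over 3 libraries). The log2 fold change was 2.95 (SE 0.522) at an edgeR adjusted p of 0.00073. In the presence of ML351 it averaged 4.75 ± 3.06 CPM in the combination and 0.992 ± 0.645 CPM with ML351 alone (2.26, SE 0.609, edgeR adjusted p = 0.00853). This difference was 1.61 without combination replicate 2 and 2.92 without ML351 replicate 3, and stayed called (edgeR adjusted p = 0.0271 and 0.00622). The groups did not overlap in either set. Levels in the combination (2.25 to 8.17 CPM) overlapped those with vehicle (1.70 to 4.20 CPM).

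Tiparp averaged 40.7 ± 2.03 CPM with cytokines and 16.9 ± 1.25 CPM with vehicle (log2 fold change 1.27, SE 0.0852, edgeR adjusted p = 4.82e-10). With ML351 present the difference was 1.10 (SE 0.0852, edgeR adjusted p = 3.35e-09). Arnt stood at 90.1, 84.7 and 89.2 CPM in the combination, 88.1, 92.8 and 87.4 CPM with cytokines, 50.1, 45.5 and 39.9 CPM with ML351 and 42.7, 46.6 and 48.6 CPM with vehicle. It averaged 89.4 ± 2.94 CPM with cytokines and 46.0 ± 2.99 CPM with vehicle (0.96, SE 0.0766, edgeR adjusted p = 4.6e-09), and 88.0 ± 2.87 CPM in the combination against 45.2 ± 5.11 CPM with ML351 (0.96, SE 0.0764, edgeR adjusted p = 4.76e-09). Both genes were higher in all 6 libraries with cytokines than in all 6 without.

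Ugt1a6a was the only tested gene that fell. It averaged 14.6 ± 1.74 CPM with cytokines and 53.4 ± 2.85 CPM with vehicle (log2 fold change -1.88, SE 0.0886, edgeR adjusted p = 4.47e-12), and 13.7 ± 0.964 CPM in the combination against 43.9 ± 1.86 CPM with ML351 (-1.68, SE 0.089, edgeR adjusted p = 2.24e-11). It stood at 12.7, 14.0 and 14.5 CPM in the combination and 14.1, 16.5 and 13.1 CPM with cytokines, below all 6 libraries without cytokines.

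Nqo1 averaged 35.9 ± 3.46 CPM with cytokines and 26.7 ± 0.669 CPM with vehicle (0.42, SE 0.169, edgeR adjusted p = 0.0408). This call was lost (adjusted p 0.0545 to 0.125) without any 1 of vehicle replicates 1, 2 and 4, ML351 replicates 2 and 3, or cytokine replicates 3 and 4, although the size stayed between 0.35 and 0.44. With ML351 present Nqo1 averaged 31.8 ± 9.81 CPM in the combination against 19.0 ± 1.20 CPM (0.75, SE 0.172, edgeR adjusted p = 0.00196). Ahr was called there (0.72, SE 0.192, edgeR adjusted p = 0.00298) and was at -0.07 (SE 0.197, adjusted p = 0.752) with cytokines against vehicle. Ahrr was at 0.25 (SE 0.585, edgeR adjusted p = 0.71) with cytokines against vehicle and at 0.28 (SE 0.965, adjusted p = 0.806) in the combination against ML351.

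Ugt1a7c (chromosome 1, 88095062 to 88220002, plus strand) stood at 6.45, 5.12 and 6.79 CPM in the combination and at 1.13, 9.03 and 1.36 CPM in cytokine replicates 1, 3 and 4. ML351 replicates 1, 2 and 3 had 3.65, 0.692 and 0.473 CPM, against 0.552, 0.794 and 0.460 CPM with vehicle. Cytokine replicate 3 and ML351 replicate 1 stood apart from their groups. With cytokines against vehicle the log2 fold change was 2.65 (SE 1.05, edgeR adjusted p = 0.0478), and without cytokine replicate 3 it was 1.04 (adjusted p = 0.269). That call was also lost (adjusted p 0.0526 to 0.12) without any 1 vehicle library, any 1 combination library or ML351 replicate 2. In the combination against ML351 it was 1.95 (SE 0.93, adjusted p = 0.0901), and 3.39 without ML351 replicate 1 (adjusted p = 0.0126). It was also called without cytokine replicate 3 (adjusted p = 0.0155) and by DESeq2 (adjusted p = 0.0484). The untested ML351 difference moved with the same libraries. It was 0.68 in the combination against cytokines and 2.30 without cytokine replicate 3, and 1.39 with ML351 against vehicle and -0.05 without ML351 replicate 1.

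The same 2 libraries were high for Gsta1 and Cyp2s1, which encode a glutathione transferase and another P450 and were picked after their values were seen. Gsta1 was at 10.9, 6.67 and 8.60 CPM in the combination, 0.322, 4.12 and 1.46 CPM with cytokines, 3.87, 0.291 and 0.197 CPM with ML351 and 0.679, 0.374 and 0.230 CPM with vehicle. Cyp2s1 was at 13.9, 11.4 and 32.8 CPM in the combination, 2.02, 21.0 and 5.04 CPM with cytokines, 16.3, 0.911 and 1.18 CPM with ML351 and 1.78, 2.06 and 2.16 CPM with vehicle. Acinar markers did not follow this order, with 637.5 CPM in cytokine replicate 3 and 905.7 CPM in replicate 4, and 223.4 CPM in ML351 replicate 1 and 276.1 CPM in replicate 2. Summed over 8 measured ductal markers, cytokine replicates 1, 3 and 4 had 1769, 1907 and 2337 CPM, and ML351 replicates 1, 2 and 3 had 1058, 876.6 and 1047 CPM. Of these 8 genes 4 were highest in cytokine replicate 3 within its group, 5 in ML351 replicate 1, and 2, Krt19 and Krt7, in both. Krt19, a keratin of duct cells, was high in the same 2 libraries and in the combination, as Ugt1a7c was, and was singled out after its values were seen. It stood at 74.0, 63.5 and 61.2 CPM in the combination, 4.84, 59.0 and 15.9 CPM with cytokines, 40.9, 3.28 and 3.23 CPM with ML351 and 7.64, 3.41 and 2.53 CPM with vehicle. The part of these markers in the Ugt1a7c values was not tested.

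**Figure D3:**
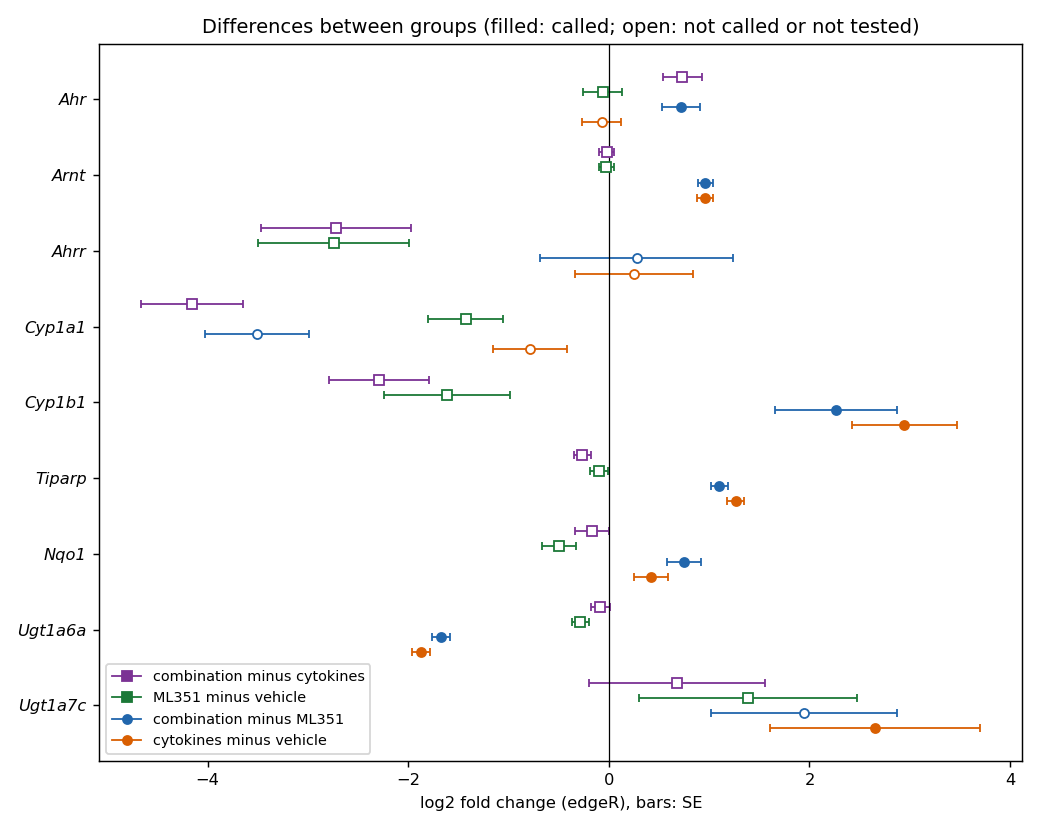
Log2 fold change from edgeR (x axis) with SE for the 9 genes in 4 comparisons, filled where called at an adjusted p under 0.05 and open where not called or not tested (legend symbols show colour and shape only). ML351 comparisons (squares) are most negative for Cyp1a1, Ahrr and Cyp1b1. Cytokine comparisons (circles) are positive for Cyp1b1, Tiparp and Arnt, among others, and negative for Ugt1a6a and for Cyp1a1, which was not tested.

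Whether the cytokine response differed with ML351 was tested as an interaction for 8 genes, and 0 were called by edgeR, where 0.0071% of all genes were (1 gene, Ankrd10, picked after its value was seen). At an unadjusted p under 0.05 there was 1 of 8, Ahr, at 0.79 (SE 0.274, edgeR adjusted p = 0.453). Of all 14089 genes 1160 were under this limit, so Ahr does not stand out by it. DESeq2 gave an adjusted p to 1 of the 8 and called 0. Over all genes it gave an adjusted p to 3709 and called 58. For Cyp1b1 the interaction was -0.68 with an SE of 0.816 and for Ugt1a7c -0.71 with an SE of 1.4, each less than 1 SE from 0.

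The pattern of Cyp1a1 was compared with every other gene by its correlation in log2 CPM, once over the 6 libraries without cytokines and once over the 6 with them, taking the smaller of both. The points share libraries and their depth, and these values are descriptions. Each set of 6 holds libraries with and without ML351, so the ML351 difference that chose the genes enters every correlation. Nothing is read from the ranks. Those of Ahrr rest on 0 to 5 counts in each library with ML351. Among the other members Ahrr was most like it, at r = 0.857 and 0.893 (rank 38 of 14088 genes), followed by Cyp1b1 at 0.677 and 0.976 (rank 307). Nqo1 (0.893 and 0.604), Tiparp (0.551 and 0.857) and Ugt1a6a (0.975 and 0.332) came next. Arnt was at 0.16 and 0.0529. Ahr (-0.152 and -0.657) and Ugt1a7c (-0.561 and -0.57) ran the other way.

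When the comparison was kept to the 11704 genes averaging 1 or more in log2 CPM, those most like Cyp1a1 were Mapk3 (r = 0.988 and 0.979), Aacs (0.982 and 0.96), Rph3al (0.972 and 0.95), Kctd13 (0.942 and 0.938) and Pink1 (0.92 and 0.936). Their differences with ML351 were far smaller than those of Cyp1a1. Mapk3 was at -0.33 and Pink1 at -0.22 in the combination against cytokines, on the log2 fold change scale, and at -0.26 and -0.27 with ML351 against vehicle.

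The machinery around the receptor responded to cytokines in both directions. Of 11 genes of the receptor complex and its coactivators 7 rose and 4 fell with cytokines against vehicle (median log2 fold change 0.27, all genes -0.02), and 7 rose and 4 fell in the combination against ML351 (median 0.45, all genes -0.02). The shares of all genes to set beside this and the lists that follow are 35.3% called higher and 37.2% lower with cytokines against vehicle, and 35.2% and 36.4% in the combination against ML351. The chaperone genes Hsp90ab1 (1.97 and 2.01) and Hsp90aa1 (2.01 and 1.95) and the coactivator gene Ncoa3 (1.36 and 1.60) rose in both. Of 6 measured partners of ARNT 1 rose and 4 fell with cytokines (median -1.05), and 2 rose and 3 fell in the combination against ML351 (median -0.45), so 5 of 6 were called in each set where 72.5% and 71.5% of all genes were. Hif1a, the oxygen-regulated partner, rose (0.84 and 0.94), while Sim1 (-2.32 and -2.27) and Epas1 (-0.94 and -1.09) fell.

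Npas4, an activity-dependent partner of ARNT known from neurons and β cells, was picked after its values were seen. It had 65, 70 and 47 counts in the combination, against 4, 3 and 0 with cytokines, 6, 0 and 1 with ML351 and 3, 0 and 0 with vehicle. The combination lay above all other libraries. It rose in the combination against ML351 (log2 fold change 4.88, SE 0.756, edgeR adjusted p = 2.46e-05) and was not called with cytokines against vehicle (adjusted p = 0.412).

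Of 12 other measured receptor targets, of which Ugt1a6b, Slc7a5 and Nfe2l2 also stand in lists below, 5 rose and 3 fell with cytokines against vehicle (median 1.37), and 4 rose and 4 fell in the combination against ML351 (median 1.18). The 8 of 12 called in each set are near the 72.5% and 71.5% of all genes. Nfe2l2, which encodes NRF2, rose (1.15 and 1.19), and the transporter gene Abcg2 (-2.80 and -2.89) and the cytokine signalling inhibitor gene Socs2 (-2.46 and -2.31) fell. Of 2 other measured Ugt1a genes, Ugt1a6b rose in both sets. It had 64 counts with cytokines against 8 with vehicle, and 34 in the combination against 3 with ML351 (a ratio of 13.9, 4.36 to 70.6 by counting). It shares exons with both Ugt1a members, so these counts are uncertain too. Ugt1a9 was at -0.35 (adjusted p = 0.188) with cytokines and fell in the combination against ML351 (-0.64, SE 0.23, edgeR adjusted p = 0.0198).

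Ido1, Ido2 and Il4i1, enzymes whose tryptophan products include receptor ligands, had few counts without cytokines and rose with them in both sets. Of 9 measured genes of the kynurenine pathway 4 rose and 1 fell with cytokines against vehicle (median 0.23), and 4 rose and 3 fell in the combination against ML351 (median 1.07). Over all genes 72.5% and 71.5% were called, so the 5 of 9 called with cytokines lie below the background and the 7 of 9 in the combination near it. Ido1, which opens the tryptophan ring, had 504 counts with cytokines against 3 with vehicle, a ratio of 172 (58.6 to 838, 95% interval for counting error only), and 782 in the combination against 2 with ML351, a ratio of 479 (132 to 3960). Ido2 had 79 counts with cytokines against 0 with vehicle and 51 in the combination against 0 with ML351, which is at least 27-fold and 20.8-fold higher when 3 counts are allowed over the group at 0. Il4i1, an amino acid oxidase, had 239 counts with cytokines against 3 with vehicle, a ratio of 81.7 (27.6 to 399), and 295 in the combination against 1 with ML351, a ratio of 361 (64.3 to 14300). Slc3a2, the heavy chain of the tryptophan transporter, rose (1.49 and 1.55). The genes that fell are named after their values were seen. Aadat, with mean levels of 0.654 CPM or less, fell in both sets (-3.61 and -3.64). Tdo2 (-0.96) and Slc7a5 (-0.25) fell in the combination against ML351. With cytokines against vehicle neither was called (0.02 and -0.12).

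Of 5 genes that supply electrons to P450 enzymes 3 rose and 2 fell in each set (medians 0.30 and 0.23), where 72.5% and 71.5% of all genes were called. Por, the P450 reductase, rose (0.39 and 0.40) as did Cyb5r1 (1.94 and 1.84), and Cyb5r3 fell (-1.55 and -1.49). Of 10 genes of the NRF2 pathway, which also controls Nqo1, 9 rose with cytokines and 10 in the combination against ML351 (medians 1.16 and 1.21), where 35.3% and 35.2% of all genes were called higher. Among them were Hmox1 (3.93 and 3.78), Gclm (1.66 and 1.66) and Gsr (1.18 and 1.24). Of 12 PARP genes, the family of Tiparp, 9 rose and 3 fell with cytokines and 8 rose and 3 fell in the combination against ML351 (medians 1.21 and 1.19), where 35.3% and 35.2% of all genes were called higher and 37.2% and 36.4% lower. Parp12 (2.79 and 2.92), Parp10 (2.76 and 2.42) and Parp9 (3.06 and 3.12) rose in both.

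**Figure D4:**
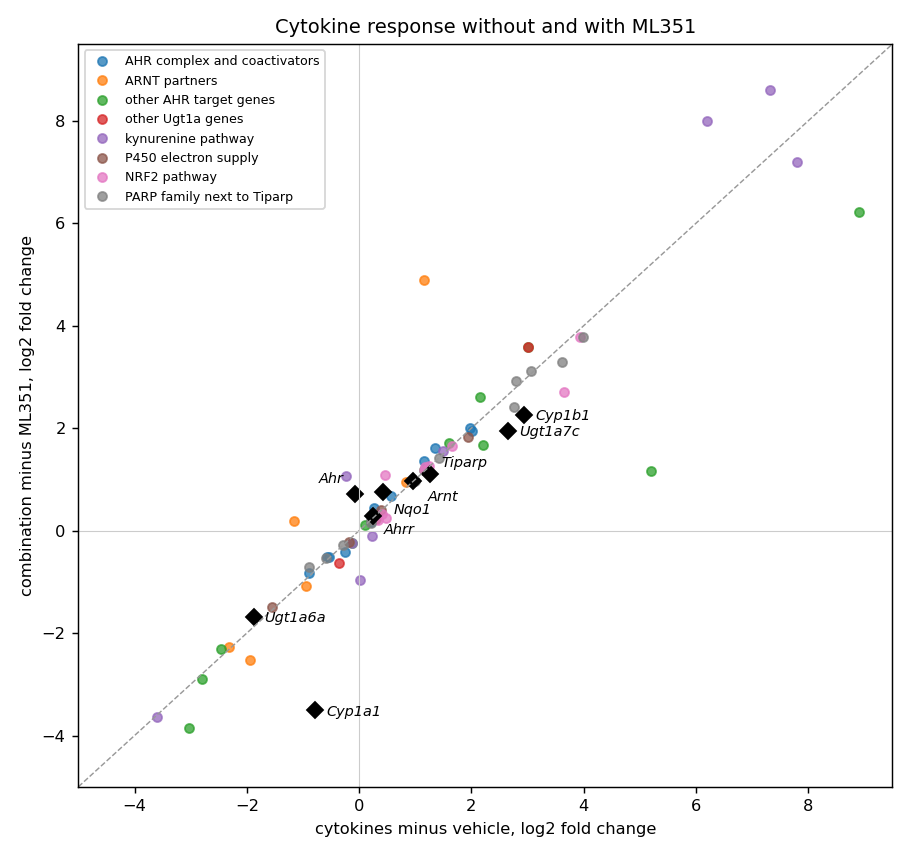
Log2 fold change with cytokines minus vehicle (x axis) and with the combination minus ML351 (y axis) for the 9 genes (black diamonds) and the genes of 8 lists around the pathway (coloured points); the dashed line marks equal values. Points off the line include Cyp1a1 (-0.78 and -3.51), Gsta2 (5.21 and 1.17) and Serpinb2 (8.90 and 6.23) below it and Npas4, the highest point of the ARNT partners, above it (1.16 and 4.88). Gsta2 and Serpinb2 had 1 and 0 counts with vehicle, so their fitted x values depend on the prior count.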

How the data were processed

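The deposited values are whole-number counts of reads per gene symbol, 1 column per library, not normalized or pooled. Per the labels' protocols, libraries were nonstranded (SMARTSeq v4). STAR, featureCounts and Subread, DESeq2 and FastQC appear in the submitters' processing notes with mouse build mm10, but what each did, and its version, is not stated there. Not given in the sources used here are the annotation, how reads in exons shared by genes were counted, and whether low genes were removed. Groups come from the agent named for each sample.

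Tests used edgeR 4.0.16 in R 4.3.3 (TMM, filterByExpr, robust glmQLFit and glmQLFTest) with all 12 libraries and a mean per group. Adjusted p-values are Benjamini-Hochberg over 14089 genes, called at 0.05. Each SE was derived from the F statistic (absolute log2 fold change over root F). In simulated counts for cytokines against vehicle over 14089 genes, 100 genes were changed by 1 on the log2 scale and 100 by 2. Of these 77% and 90% were recovered, and 4.57% of the calls were false. Far fewer genes changed there than in the real comparison, where 72.5% were called, so these rates may not carry over to it. Gene positions and exon lengths are from GENCODE M21 (GRCm38, the assembly of mm10), promoter windows from RefSeq (GRCm38.p6). No pair of libraries of a group matched within sampling noise.

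The members, the lists and the naming rule were chosen with earlier results of these data known. Named besides the members were up to 3 called genes of smallest p from each list in each cytokine comparison, the 5 genes most like Cyp1a1 and the islet hormone genes. Alternatives were DESeq2, other scalings and filters, fewer groups, a replicate block and leaving out each library.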

Additional observations from a re-analysis of the deposited data

How the results depend on the processing

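The cytokine calls over all genes moved little, from 9618 to 10259 and from 9448 to 10104 over the alternatives. The interaction had 1 called gene, and 58 with DESeq2, which gave an adjusted p to 3709 genes. It had 0 with library totals alone, 0 with the replicate block and 0 to 1 when a library was left out. Cyp1a1 in the combination against cytokines ranged from -5.38 to -3.79 on the log2 scale when a library was left out, and with ML351 against vehicle from -1.69 to -1.28. Calls of Tiparp, Arnt, Ugt1a6a and Cyp1b1 in both cytokine comparisons held in all 19 alternatives, as did those of Ahr and Nqo1 in the combination against ML351. The fit without a filter is counted among the 19 but repeats the main fit, since the filter removed 0 genes. Leaving out a library outside a comparison acts on that comparison mainly through the shared estimate of the spread. The Nqo1 call with cytokines against vehicle was lost in 9 of 19 and the Ugt1a7c call in 11 of 19. The replicate block ended both (adjusted p = 0.0617 and 0.299). Of 13 same-numbered pairs of libraries 2 had a correlation of deviations over 0.1 (median -0.0686), against 14 of 41 other pairs (median 0.0167). The labels do not say whether equal numbers mark a shared isolation. These correlations cannot settle it, since a weak shared effect could give the same values. Values near 0 changed sign. The Arnt interaction was -0.0049 with DESeq2, -0.00487 with RLE size factors, -0.0144 with library totals alone, -0.0496 with the replicate block and -0.0798 to 0.0745 without single libraries. The Ugt1a7c interaction was 0.55 with the replicate block and -1.16 to 0.906 without single libraries. Without single libraries, Ahrr ranged from -0.506 to 1.15 in the interaction, from -0.241 to 1.4 in the combination against ML351 and from -0.155 to 0.443 with cytokines against vehicle, and Ahr from -0.173 to 0.0139 there. Ahrr was not tested with at least 1 CPM required in 3 libraries. The cause of these shifts was not tested.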
